A study of Mus musculus with 66 samples.

Results

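Steady-state RNA was compared between mouse fibroblasts 30 min after MycER activation and the same cells at 0 min, to see which mature RNA levels moved first. The comparison held 6 of the 66 libraries of the study, 3 of total RNA at 30 min and 3 of total RNA at 0 min, taken by their labelled time and RNA fraction. All groups were 3T9 fibroblasts, an immortalised line labelled as embryonic fibroblasts of E13.5, with the genotype c-mycflox/flox and infected in vitro with a pBabe bleomycin MycER construct. The 30 min group had received 400 nM 4-hydroxytamoxifen (OHT), and the 0 min group carried no treatment entry. No vehicle-treated group at 30 min was analysed here, so activation of MycER, OHT itself and handling cannot be told apart. The construct stayed in every library, so the comparison sets activated MycER against MycER without OHT, on top of the floxed endogenous gene. The labels number 3 replicates per group but do not say whether these were separate cultures, so p-values measure the spread between libraries, which may be technical.

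MycER is a fusion of the transcription factor Myc with the hormone-binding domain of the oestrogen receptor; it is held inactive until OHT releases it. Myc pairs with Max, binds the E-box CACGTG and related sites at many promoters, and is known for driving genes of ribosome production, nucleotide synthesis and growth. Reads in introns come mostly from unspliced precursor RNA, which is short-lived, and reads in exons mostly from mature mRNA, which is a pool that fills and drains with the half-life of each message. A change in synthesis therefore reaches intron values early and exon values late, and reaches the exon values of unstable messages before those of stable ones.

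The upstream sequences of 4 genes whose exon values rose within 30 min are shown because these genes hold the largest rise in a well-measured message (Nr1d1) and every CACGTG found upstream of a riser. Each is the 250 bases before the RefSeq start on the gene's strand, 5′ to 3′, in build GRCm38.p6, with CACGTG and the related CACGCG (either strand) in capitals. The windows are chr11:98775378-98775627 (minus strand) for Nr1d1, chr2:127335909-127336158 (plus) for Dusp2, chr11:74830674-74830923 (plus) for Mnt and chr6:145865421-145865670 (minus) for Bhlhe41.
Nr1d1: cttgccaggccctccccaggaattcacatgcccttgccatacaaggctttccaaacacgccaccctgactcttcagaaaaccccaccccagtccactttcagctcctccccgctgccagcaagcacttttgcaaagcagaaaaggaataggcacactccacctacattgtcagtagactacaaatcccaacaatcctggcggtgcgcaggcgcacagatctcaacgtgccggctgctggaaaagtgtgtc
Dusp2: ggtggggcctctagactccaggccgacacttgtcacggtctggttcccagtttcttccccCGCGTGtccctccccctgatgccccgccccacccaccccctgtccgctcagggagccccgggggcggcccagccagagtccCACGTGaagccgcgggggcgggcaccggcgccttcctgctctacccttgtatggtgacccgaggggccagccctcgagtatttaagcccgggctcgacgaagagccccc
Mnt: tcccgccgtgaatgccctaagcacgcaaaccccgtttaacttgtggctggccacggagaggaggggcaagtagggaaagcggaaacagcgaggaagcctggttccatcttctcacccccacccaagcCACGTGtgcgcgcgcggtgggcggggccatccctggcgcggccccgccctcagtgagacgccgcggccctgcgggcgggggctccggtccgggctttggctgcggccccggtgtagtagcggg
Bhlhe41: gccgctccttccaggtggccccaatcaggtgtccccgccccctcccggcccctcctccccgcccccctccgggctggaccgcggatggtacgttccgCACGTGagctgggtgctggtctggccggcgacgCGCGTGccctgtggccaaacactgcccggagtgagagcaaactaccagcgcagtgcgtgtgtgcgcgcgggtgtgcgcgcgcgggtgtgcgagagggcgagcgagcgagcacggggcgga
Dusp2 held CACGTG starting at base -109 from the start site, Mnt at -123 and Bhlhe41 at -153, while the Nr1d1 window held neither sequence. A RefSeq window from 250 bases before to 50 after the start was matched for 32 of the 38 risers and 9194 of the 11486 genes tested. CACGTG was found for 3 of those 32 risers (9.38%) and for 12.1% of all matched genes. CACGCG on either strand was found for 11 of 32 risers (34.4%) and for 20.4% of all matched genes. The cAMP response element TGACGTCA was found for 0 of 32 risers and for 3.58% of all matched genes. These are descriptions of letters in a short window.

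The summed exon values lay between 46.5 and 51.86 per library and the summed intron values between 11.15 and 13.01, both in units of 1e6, with exon profiles correlated at 0.991 to 0.9951 across genes. The read depth is unknown because the deposited whole numbers appear to have been rescaled. The intron share of a library's sum was 20.9 ± 1.2% at 30 min and 18.6 ± 1.21% at 0 min (SD, n = 3 each). The 3 shares were 19.5, 21.5 and 21.5% at 30 min, against 17.9, 20 and 18% at 0 min, so that the groups overlapped by 1 library, and with 3 against 3 no exact two-sided permutation test can pass 0.05 (p = 0.2, the smallest possible being 0.1). Of 12 fibroblast markers, 8 were in the table, among them Col1a2, Fn1, Vim and Pdgfrb, with a summed exon value of 553400 to 755400 at 30 min and 593100 to 639000 at 0 min. Thy1, Lum, Dcn and Fap were not among the genes listed. None of 8 epithelial and 7 muscle markers was listed, and the 4 listed of 8 haematopoietic markers (Cd68, Csf1r, Itgam, Ptprc) summed to 327.2 to 379.9 at 30 min and 304.3 to 313.1 at 0 min. Pecam1, the only listed gene of 7 endothelial markers, summed to 6.395 to 16.16 at 30 min and 5.853 to 11.59 at 0 min, and the 4 listed of 8 neural markers, nearly all Nes, summed to 36020 to 39630 and 34630 to 38710. No tested marker of these lists passed the test in exons, which 0.366% of all genes did, so nothing is read from the absence of calls. In bulk RNA, fewer cells of a type and less RNA per cell cannot be told apart.

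Few mature RNA levels had moved at 30 min. Of 11486 genes tested on exon values, 38 rose and 4 fell (42 called, 0.366% of those tested), with limma's moderated test on log2 values of all 33 total RNA libraries and a Benjamini-Hochberg adjusted p under 0.05. The risers moved by a median of 0.54 on the log2 scale and the fallers by -0.40, against a median of 0.0015 over all genes tested. In each of the 42 genes the 3 values at 30 min lay entirely above or entirely below the 3 values at 0 min. The 42 were picked by a test on these same values, so the separation adds no support to the calls. An unadjusted p under 0.05 was found for 1105 genes, 576 higher and 529 lower. The count leaned on the spread shared with the other 9 times: fitted on the 6 libraries alone, 3 genes rose (Nr1d1, Dusp2 and Spry1) and 0 fell. Without 30 min replicate 2 the same test gave 19 risers and 0 fallers, and with the deposited numbers as they stand it gave 25 and 72.

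Nr1d1 had the largest log2 change of the risers that met the rule for naming, and is described first with the other transcription factors. Nr1d1 (REV-ERB alpha, the haem-binding nuclear receptor that represses Bmal1 in the clock; mm9 chromosome 11, 98629246 to 98636647, minus strand) had scaled exon values of 1832, 1970 and 2068 at 30 min, against 595, 496.1 and 363.8 at 0 min. Every 30 min library stood far above the highest 0 min library, and the log2 change was 2.04 ± 0.14 (SE, adjusted p = 1.21e-10). It overlaps Thra on the other strand, and whether strand was used in counting is not given in the sources used here. Bhlhe41 (DEC2, a basic helix-loop-helix repressor that also acts on clock genes) had 70.72, 83.95 and 39.44 at 30 min, against 28.98, 27.39 and 34.14 at 0 min. Its groups touched nearly, since 30 min replicate 3 was only just above 0 min replicate 3 (log2 change 1.01 ± 0.21, adjusted p = 0.0208). Bhlhe41 met the level condition for naming through the 30 min libraries (mean 64.7, against 30.17 at 0 min).

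Mnt, which binds Max and represses the E-box genes that Myc activates, had 642.5, 836.4 and 1007 at 30 min, against 532.2, 459.5 and 575.5 at 0 min (log2 change 0.65 ± 0.12, adjusted p = 0.00875). Of the 9 tested members of the Myc network 1, Mnt, was called in exons, beside 0.331% of all genes risen. Nothing is read from the lack of a call in the other members. Klf16, a Krüppel-like factor, had 1776, 2117 and 2415 at 30 min, against 1486, 1266 and 1226 at 0 min (log2 change 0.66 ± 0.11, adjusted p = 0.00161). Klf9, a Krüppel-like repressor induced by glucocorticoid and thyroid hormone, had 1541, 1528 and 1231 at 30 min, against 1064, 1052 and 757 at 0 min. In both groups replicate 3 was the lowest for Klf9 (log2 change 0.59 ± 0.12, adjusted p = 0.013). Tgif1, a homeobox repressor of TGF-beta and retinoid signalling, had 3771, 3360 and 3494 at 30 min, against 2622, 2487 and 2210 at 0 min (log2 change 0.54 ± 0.11, adjusted p = 0.0147). Several of these calls were lost when single libraries were left out. Bhlhe41 had adjusted p values of 0.1 and 0.203 without 30 min replicates 1 and 2, and of 0.101 and 0.103 without 0 min replicates 1 and 2. Mnt had 0.0634 and 0.0787 without 30 min replicates 2 and 3, and 0.0839 without 0 min replicate 2. Klf9 had 0.0803 and 0.103 without 30 min replicates 1 and 2, and 0.122 without 0 min replicate 3. Tgif1 had 0.0815 without 30 min replicate 1, 0.106 without 0 min replicate 3 and 0.0521 without further scaling.

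Signalling genes among the risers included inhibitors of growth factor signalling. Dusp2, a nuclear phosphatase that switches off MAP kinases (mm9 chromosome 2, 127161895 to 127164112, plus strand), had 383.9, 375.7 and 408.2 at 30 min, against 171, 160.3 and 127.8 at 0 min. The log2 change was 1.35 ± 0.10 (adjusted p = 1.24e-09). Spry1, a Sprouty protein that restrains receptor tyrosine kinase signalling to Ras (mm9 chromosome 3, 37538869 to 37543520, plus strand), had 603.1, 553 and 696 at 30 min, against 241.5, 301.3 and 259.5 at 0 min. Both groups were tight for these genes, and Spry1 changed by 1.20 ± 0.13 (adjusted p = 2.44e-06). Of 16 tested MAPK feedback genes these 2 were called, beside 0.331% of all genes, and the 16 had a median log2 change of 0.139.

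Further signalling genes, and the risers Klhl21 and Zbed5, rose by less. Rasl11a, a small Ras-like GTPase, had 446.5, 420.8 and 433.8 at 30 min, against 265.6, 240.4 and 270.2 at 0 min (log2 change 0.74 ± 0.11, adjusted p = 0.00045). Fzd4, a Frizzled receptor for Wnt and norrin, had 391, 409.3 and 384.8 at 30 min, against 232.8, 293.2 and 248.7 at 0 min (0.62 ± 0.10, adjusted p = 0.00158). Sik1, a salt-inducible kinase that restrains CREB coactivators, had 1446, 1681 and 1864 at 30 min, against 1146, 1104 and 1146 at 0 min (0.55 ± 0.08, adjusted p = 0.000175). All 3 sets of values were separated between the groups, and these calls held without any 1 of the 6 libraries. Klhl21, an adaptor of the Cullin 3 ubiquitin ligase used in mitosis, had 2909, 3077 and 3051 at 30 min, against 2225, 2039 and 1802 at 0 min (0.58 ± 0.09, adjusted p = 0.00158). Zbed5, a gene derived from a DNA transposase, had 684.9, 579.3 and 495.6 at 30 min, against 433.7, 355.1 and 380.4 at 0 min (0.58 ± 0.12, adjusted p = 0.013). Zbed5 had adjusted p values of 0.101 and 0.0671 without 30 min replicates 1 and 2, 0.0972 and 0.0628 without 0 min replicates 2 and 3, and 0.0503 on RPKM plus 1.

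Slc30a1, the plasma membrane exporter of zinc (ZnT1; mm9 chromosome 1, 193730646 to 193737126, plus strand), had 1749, 1547 and 1275 at 30 min, against 930.2, 917.1 and 707.2 at 0 min. Replicate 3 was the lowest in each group, and the log2 change was 0.84 ± 0.14 (adjusted p = 0.00193). 1700034H15Rik overlaps it on the other strand. Lsmem2, which encodes a small membrane protein, had 295, 285.4 and 267.5 at 30 min, against 142, 160.3 and 138.5 at 0 min (0.94 ± 0.15, adjusted p = 0.00161). Apol8, an apolipoprotein L family member, had 95.97, 138.5 and 168.4 at 30 min, against 46.37, 50.72 and 48.77 at 0 min. It met the level condition for naming through the 30 min libraries (mean 134.3, against 48.62 at 0 min). Its log2 change was 1.41 ± 0.32 (adjusted p = 0.0387), and leaving out 30 min replicate 2 or 3, or 0 min replicate 1, 2 or 3, gave adjusted p values of 0.148, 0.137, 0.158, 0.0992 and 0.106.

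**Figure D1:**
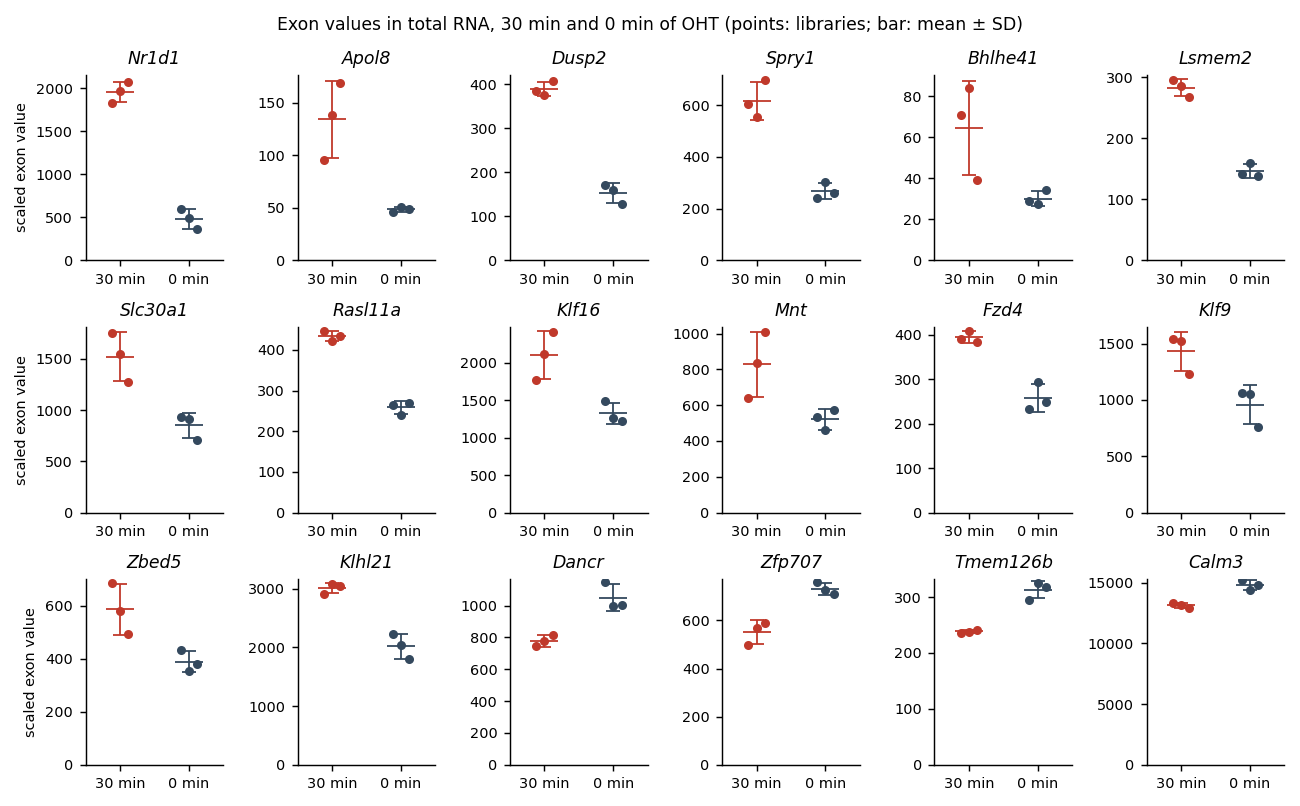
Scaled exon value in total RNA of the 14 risers and 4 fallers chosen by size of change, 1 panel per gene, with 30 min in red on the left and 0 min in dark blue on the right; points are libraries and bars are mean ± SD (n = 3). Nr1d1 stood at 1956 ± 119 and 485 ± 116. The groups are separate in every panel, which was a condition for choosing these genes.

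Of the remaining 22 risers, 18 met the level rule for naming and moved by 0.27 to 0.57 on the log2 scale. They included metabolic genes (Glul, glutamine synthetase; Slc29a2, an equilibrative nucleoside transporter; Cyb5r1, a cytochrome b5 reductase; Dgke, a diacylglycerol kinase; Pdxp, pyridoxal phosphatase; St6galnac4, a sialyltransferase) and regulators (Mef2d, a MADS-box transcription factor; Zfp28, a zinc finger protein; Elmsan1, a deacetylase complex subunit; Snapc4, a subunit of the snRNA promoter complex; Usp36, a nucleolar deubiquitinase; Rhebl1, a Rheb-like GTPase). Xkr8, a phospholipid scramblase, Stc2 and Gdnf, which are secreted, Tprn, D8Ertd82e and AU019823 completed this set. The last 4 were Ttll9, Creb3l3, Astl and 1810032O08Rik, which were too low or had no curated symbol. Astl had 9.092, 4.198 and 3.197 at 30 min and was listed at 0 in all 3 libraries at 0 min, so no fold is given. Astl starts 262 bases after the end of Dusp2 on the same strand of chromosome 2 in mm9, so reads running past the end of Dusp2 and reads from Astl could not be told apart. AU019823 (Timm8b and Pih1d2), Pdxp (Sh3bp1), 1810032O08Rik (snoRNAs and St6galnac2) and Glul (A930039A15Rik) also overlap other annotated genes, and their values are uncertain to that extent. The same holds for Dgke, which overlaps 1 annotated gene on each strand, and for Mef2d, St6galnac4, Snapc4, Ttll9 and Slc30a1, which overlap annotated genes on the other strand. Klf9 holds a microRNA gene on its own strand. Genes named below for their introns overlap other annotated genes as well. On the other strand these include Rrp9 (Parp3), Bop1 (Heatr7a and Scx), Ppat (Paics among them), Nusap1 (Oip5), Ccnd2, Hk2 and Slc7a5. Ncl and Top2a hold snoRNA genes on their own strand.

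The 4 fallers changed little in size. Dancr, a long non-coding RNA that hosts a snoRNA, had 743.5, 774.4 and 814.3 at 30 min, against 1147, 996.2 and 1002 at 0 min (log2 change -0.43 ± 0.09, adjusted p = 0.024). Zfp707, a zinc finger protein, had 497, 569.8 and 590.5 at 30 min, against 759.3, 726.3 and 709.2 at 0 min (-0.41 ± 0.09, adjusted p = 0.0397). Tmem126b, an assembly factor of respiratory complex I, had 236.4, 238.2 and 240.9 at 30 min, against 295.6, 324.6 and 318 at 0 min (-0.39 ± 0.09, adjusted p = 0.0386). All 4 sets of values lay lower at 30 min without overlap. Calm3, a calmodulin gene, averaged 13150 ± 210 at 30 min and 14800 ± 410 at 0 min, the smallest change called (-0.17 ± 0.04, adjusted p = 0.0399). Each of these calls was lost when single libraries were left out. Tmem126b and Calm3 lost it without any 1 of the 6 (adjusted p 0.0562 to 0.163 and 0.0517 to 0.261), Zfp707 without any but 30 min replicate 3 (0.082 to 0.219) and Dancr without 30 min replicates 1 and 2 and 0 min replicates 1 and 3 (0.0525 to 0.234). Armc6, the next gene by p, did not qualify (log2 change -0.23, adjusted p = 0.0604).

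Some classical Myc targets, cell cycle genes and immediate early genes were to be reported whatever their change. Ncl, the nucleolar protein nucleolin, averaged 57490 ± 1840 at 30 min and 51510 ± 2910 at 0 min (SD, n = 3 each; log2 change 0.16 ± 0.20, adjusted p = 0.879), although its groups did not overlap. Odc1, ornithine decarboxylase of polyamine synthesis, averaged 28560 ± 3690 at 30 min and 29340 ± 1850 at 0 min (adjusted p = 0.916). Cad, which carries out the first steps of pyrimidine synthesis, averaged 15270 ± 2950 at 30 min and 13550 ± 1410 at 0 min (adjusted p = 0.663), and Ccnd2, a G1 cyclin, 10170 ± 1250 and 9128 ± 723 (adjusted p = 0.826). For these 3 the groups overlapped. Cdk4, a G1 kinase, averaged 24510 ± 1380 at 30 min and 25490 ± 1120 at 0 min, and Cdkn1a, the CDK inhibitor p21, 53.75 ± 3.32 and 54.16 ± 10.5 (adjusted p = 0.873 and 0.996). Values assigned to Myc were 2649, 3222 and 4421 at 30 min, against 3040, 2830 and 3065 at 0 min (adjusted p = 0.868). They may hold reads of both the endogenous gene and the MycER construct, whose sequence is not given in the sources used here.

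Egr1, a zinc finger factor induced within minutes by serum and stress, had 698.1, 706.2 and 3671 at 30 min, against 403.8, 507.2 and 1115 at 0 min. Fos, a subunit of AP-1, had 103, 104.9 and 218.5 at 30 min, against 50.23, 70 and 112.2 at 0 min. For both genes replicate 3 was the highest of its group at either time, and the log2 changes of 0.99 ± 0.54 and 0.85 ± 0.46 did not pass (adjusted p = 0.594 and 0.582). Of the 22 tested immediate early transcription factors 0 were called in exons, near the 0.366% of all genes, and their median log2 change was 0.208. Its members ranged from -0.27 to 1.35.

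Introns had moved far more widely in the same libraries. Of 11474 genes tested on intron values, 1737 rose (15.1%) and 1368 fell (11.9%), together 27.1%. The split depends on how intron values are put on a common scale: with intron sums set equal it was 1170 and 2155, with the deposited values as they stand 1861 and 907, and with factors taken from exons it was 2431 and 458, which moved the median of all genes to 0.121 on the log2 scale. Of the 38 exon risers, 34 had a called rise in introns, with a median intron change of 1.13. The number was 34 or 35 under each scaling tried. Astl, Ttll9, AU019823 and Gdnf had no intron call. Gdnf, a neurotrophic factor, stood apart, with an exon rise of 0.28 and an intron change of 0.02 ± 0.11. Of the fallers, Zfp707 (-0.76) and Dancr (-2.22) were called in introns. The Dancr intron values of 2.911, 41.9 and 172.8 at 30 min and 300.6, 101.7 and 93.47 at 0 min overlapped, and 4 of the 6 omissions of 1 library ended that call.

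The intron values of the leading genes were well separated between the times. Nr1d1 introns had 713.3, 614.3 and 688.3 at 30 min, against 110.4, 132.1 and 84.33 at 0 min (log2 change 2.63 ± 0.14, adjusted p = 1.47e-15). Slc30a1 introns had 106.7, 108.6 and 108.3 at 30 min, against 30.67, 17.11 and 13.21 at 0 min (2.44 ± 0.22, adjusted p = 1.99e-10). Slc30a1 was among the 8 largest intron rises, whose level condition it met through the 30 min libraries. Klf9 introns had 1060, 1066 and 1185 at 30 min, against 405.9, 417.2 and 254 at 0 min (1.65 ± 0.12, adjusted p = 1.41e-12). Spry1 introns had 123.2, 116.2 and 140 at 30 min, against 49.08, 20.91 and 43.69 at 0 min (1.80 ± 0.20, adjusted p = 2.07e-08). In all 4 the estimated intron change exceeded the estimated exon change. Dusp2 introns had 37.85, 29.52 and 38.73 at 30 min, against 15.34, 7.603 and 15.24 at 0 min, a change of 1.46 ± 0.24 that was close to that of its exons.

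**Figure D2:**
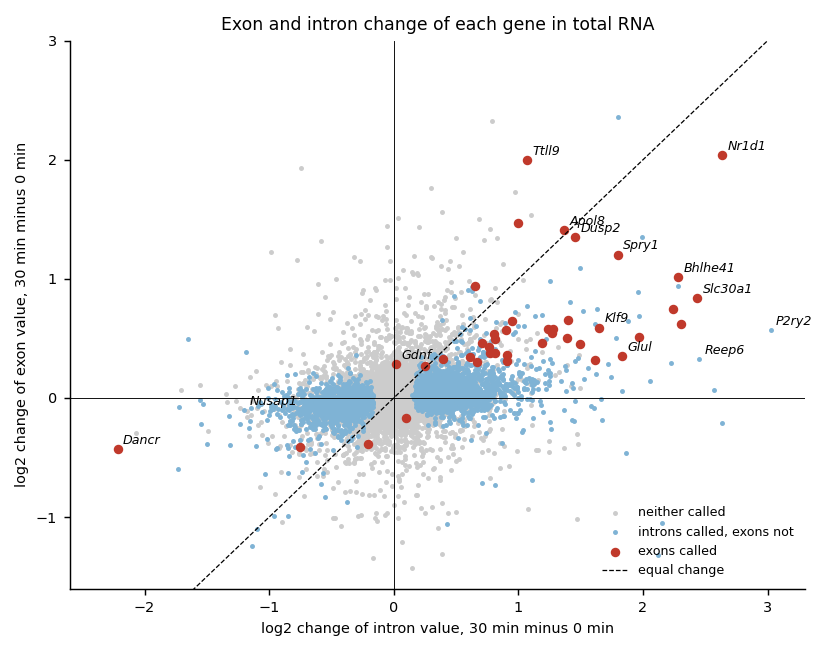
Log2 change of the exon value (y axis) against that of the intron value (x axis), 30 min minus 0 min, for each gene tested in both tables except Astl; 1 gene lies outside the axes, and the dashed line marks equal change. Red points are genes called in exons, blue points genes called in introns alone; most blue points lie near 0 on the y axis, and most red points lie right of the dashed line.

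Whether exons and introns of a gene changed by unequal amounts was tested directly on the log2 exon to intron ratio of each library. Of 11448 genes, 790 had a called rise of the ratio (6.9%) and 1110 a called fall (9.7%), a split that became 1372 and 761 with sums set equal and 217 and 1476 with the deposited values as they stand. Of the 38 exon risers, 24 had a lower exon to intron ratio at 30 min and 0 a higher one. With sums set equal these numbers were 19 and 2, and with the deposited values 25 and 0. The ratio fell by 1.54 ± 0.22 for Slc30a1 (adjusted p = 1.66e-05), by 1.38 ± 0.22 for Rasl11a (adjusted p = 9.79e-05), by 1.06 ± 0.12 for Klf9 and by 0.59 ± 0.17 for Nr1d1 (adjusted p = 0.019). It did not pass for Dusp2 (-0.04 ± 0.22, adjusted p = 0.933), Spry1 (-0.57 ± 0.23, adjusted p = 0.0904) or Mnt (-0.30 ± 0.18, adjusted p = 0.274). Fitted on the 6 libraries alone, the counts over all genes were 162 and 324.

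Most genes whose introns rose had no exon call. Of the 1737 intron risers, 34 (1.96%) had an exon rise called, against 0.331% of all genes, and the median exon change of all 1737 was 0.054 beside a median intron change of 0.42. Of the 1368 intron fallers, 2 (0.146%) had an exon fall called, against 0.0348% of all genes, with median changes of -0.055 in exons and -0.39 in introns. The share was 0.0679% for the 1473 genes whose introns changed by 0.25 to 0.5 on the log2 scale, 2.04% for the 736 between 0.5 and 1, and 12.6% (20 genes) for the 159 above 1. The median exon change in the last class was 0.20. Both values of a gene come from the same libraries, so these shares are descriptions.

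P2ry2, a G-protein-coupled receptor for ATP and UTP (mm9 chromosome 7, 108145086 to 108160505, minus strand), had the largest intron rise of the genes that met the rule for naming, whose level condition it met through the 30 min libraries. Its 0 min baseline was small, and the size of the change rests on it. Its introns had 61.14, 56.19 and 52.64 at 30 min, against 5.112, 13.31 and 3.048 at 0 min (log2 change 3.02 ± 0.30, adjusted p = 1.71e-09). Its exons had 85.87, 85 and 81 at 30 min, against 68.58, 58.84 and 43.9 at 0 min, separate groups whose change of 0.57 ± 0.18 did not pass (adjusted p = 0.259). The exon to intron ratio fell by 2.28 ± 0.28 (adjusted p = 3.15e-06). Reep6, which shapes the endoplasmic reticulum, had an intron change of 2.45 ± 0.18 and an exon change of 0.32 ± 0.14 (adjusted p = 0.473). Dgat2, an enzyme of triglyceride synthesis, and Rrp9, a component of the U3 snoRNP, had intron changes of 1.83 ± 0.13 and 1.67 ± 0.09 with changes of the exon to intron ratio of -1.75 ± 0.12 and -1.67 ± 0.12. For Limk1, a kinase of cofilin, the ratio changed by -1.68 ± 0.10. Introns of Dyrk3, a kinase that dissolves stress granules, changed by 1.88 ± 0.18, those of Glul by 1.83 ± 0.12 and those of Xkr8 by 1.97 ± 0.17, and the 2 last-named also had exon calls.

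At the other end, introns of Nusap1, a spindle protein, had 340.6, 320 and 229.4 at 30 min, against 712.6, 691.9 and 615.7 at 0 min (log2 change -1.20 ± 0.13, adjusted p = 5.42e-09). Its exons averaged 4494 ± 320 at 30 min and 4817 ± 197 at 0 min (adjusted p = 0.754). Ccng2, an atypical cyclin that accompanies growth arrest, fell in introns to 118.9 ± 6.31 at 30 min, against 265.2 ± 10.5 at 0 min (-1.15 ± 0.17, adjusted p = 4.82e-06). The zinc finger genes Zfp128 (-1.73) and Zscan2 (-1.10), with AI987944 (-1.16), completed the 5 largest intron falls. The ratio of exon to intron rose by 1.09 ± 0.15 for Nusap1, 1.08 ± 0.19 for Rad51c, a recombination protein, 1.04 ± 0.24 for C1qtnf6, 1.01 ± 0.18 for Mvd, an enzyme of the mevalonate pathway, and 1.01 ± 0.12 for Prr11, a regulator of cell cycle progression.

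RNA made in a 10 min pulse of 4-thiouridine and purified on beads gave a separate set of libraries at the same times. In these labelled libraries, 921 genes rose in exons (8.02%) and 415 fell (3.61%), or 491 and 845 with the deposited values as they stand. Of the 38 total RNA risers 37 were called higher in labelled exons, Gdnf being the exception (0.07, adjusted p = 0.693), with a median change of 1.05 against 0.54 in total RNA. Labelled Nr1d1 exons had 1586, 1578 and 2043 at 30 min, against 349.1, 284.8 and 263.1 at 0 min (2.53 ± 0.11). Labelled Dusp2 exons had 200.1, 211.3 and 213.8 at 30 min, against 58.02, 72.46 and 54.46 at 0 min (1.75 ± 0.13). Labelled Mnt exons had 827.3, 854.4 and 867.6 at 30 min, against 573.4, 471 and 518.7 at 0 min (0.71 ± 0.10). For these genes the groups were wide apart. Labelled introns, of which 2553 genes rose (22.2%) in all, were called higher for 37 of the 38. Of the fallers, Zfp707 and Tmem126b were called lower in labelled exons, and Dancr (-0.16, adjusted p = 0.415) and Calm3 (-0.14, adjusted p = 0.457) were not. Without labelled 30 min replicate 3 the labelled counts were 556 and 183, and without labelled 0 min replicate 3 they were 580 and 236.

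The time points around 30 min placed these changes in order. At 10 min no gene was called in exons against 0 min by limma (352 had an unadjusted p under 0.05), and 14 rose and 0 fell in introns (0.122% called). At 20 min 5 genes had risen in exons (0.0435%), which were Nr1d1, Dusp2, Spry1, Ttll9 and Astl, beside 889 that rose and 438 that fell in introns (11.6% called). At 1 h the exon counts were 601 and 399 (8.71% called) and the intron counts 2331 and 2288 (40.3%). All of these share the 0 min libraries. Against the 10 min libraries, 54 genes rose and 8 fell in exons at 30 min (0.54% called), and those counts ranged from 18 to 142 called genes when 1 library was left out. With the deposited values as they stand the split turned to 30 and 336. Fitted on the libraries of these 2 times alone, 1 gene rose and 0 fell.

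Libraries at 1 h and 10 min were compared after the 30 min values had been seen. They are outside the difference of 30 min and 0 min, but entered the same fit and so its estimate of the spread. In that comparison 644 of 11486 genes rose (5.61%) and 390 fell (3.4%). Of the 38 risers, 35 were called higher at 1 h than at 10 min, with a median change of 0.90, and Gdnf (0.03, adjusted p = 0.816), Apol8 (0.24, adjusted p = 0.736) and Astl were not. Of the 4 fallers, Zfp707 (-0.55) and Dancr (-0.42) were called lower.

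The courses differed between genes. Nr1d1 exons averaged 485 at 0 min, 526.6 at 10 min, 1226 at 20 min, 1956 at 30 min, 3683 at 1 h and 4210 at 1.5 h, and then 1910 at 16 h. Its introns averaged 109, 204.4, 572.3, 671.9, 672.9 and 446.8 at the same first 6 times and stood at 241.8 at 16 h. Slc30a1 exons averaged 851.5 at 0 min, 928.3 at 10 min, 1153 at 20 min, 1523 at 30 min and 3329 at 2 h, and its introns 20.33, 49.11, 104.3, 107.9 and 90.26. P2ry2 exons averaged 57.11 at 0 min, 49.18 at 10 min, 62.97 at 20 min, 83.96 at 30 min and 455.1 at 8 h, so most of its exon increase came after 30 min. Dusp2 exons averaged 153 at 0 min, 389.3 at 30 min, 638.9 at 1 h and 707.3 at 8 h.

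**Figure D3:**
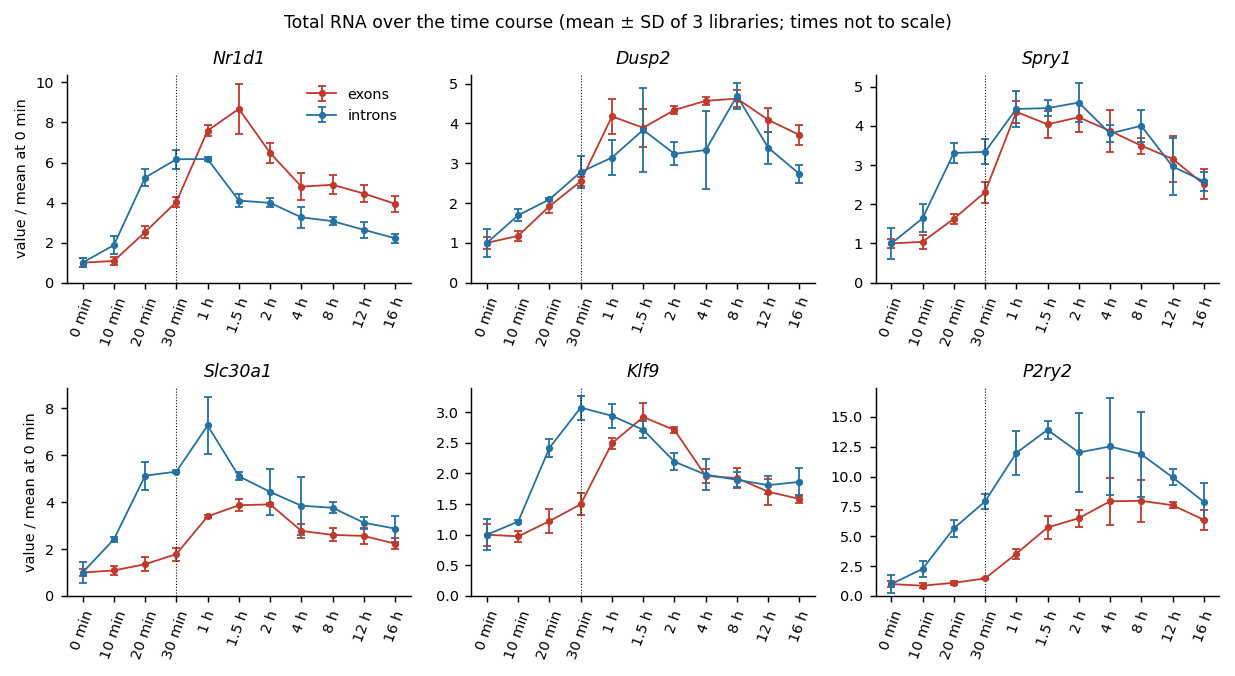
Mean exon (red) and intron (blue) value in total RNA at the 11 times, divided by the gene's mean at 0 min, for 6 genes; bars are the SD of 3 libraries and the dotted line marks 30 min. At 30 min the intron curves of Nr1d1, Spry1, Slc30a1, Klf9 and P2ry2 stand above their exon curves, and those of Dusp2 lie close together.

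Gene lists are read against the shares over all genes, which were 0.331% risen and 0.0348% fallen in exons and 15.1% risen and 11.9% fallen in introns. Exon calls were found in 6 of the 25 lists of pathways: 2 of 16 MAPK feedback genes (Dusp2, Spry1), 2 of 17 circadian clock genes (Nr1d1, Bhlhe41), 2 of 13 glucocorticoid and cAMP response genes (Klf9, Sik1), Mnt of 9 Myc network genes, Klf9 of 24 CDK inhibitors and growth arrest genes and Tgif1 of 24 YAP and TGF-beta targets. All were rises. In introns 11 of the 17 clock genes rose and 0 fell, with a median of 0.69, beside 0.24 in exons. Nr1d2 (REV-ERB beta) introns averaged 2004 ± 205 at 30 min and 903.5 ± 166 at 0 min (log2 change 1.16 ± 0.11), while its exons averaged 4097 ± 670 and 3886 ± 667 (adjusted p = 0.912). Cry1, a cryptochrome repressor of the clock, changed by 0.82 ± 0.09 in introns and 0.13 ± 0.08 in exons.

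Genes of ribosome production rose often in introns. Of 37 ribosome biogenesis factors, 25 rose in introns (19 to 30 over the scalings tried), beside 15.1% of all genes, with a median of 0.34. In exons 0 were called, which is near the 0.366% of all genes, and the median was 0.035. Rrp9 introns had 893.7, 878.1 and 856.1 at 30 min, against 293.4, 316.5 and 224.5 at 0 min. Bop1 introns, of a factor for the large ribosomal subunit, had 1811, 2056 and 2455 at 30 min, against 1109, 1043 and 990.6 at 0 min, and Ddx10, an RNA helicase, 3668, 4225 and 4370 against 2408, 2281 and 2209. These groups were separate, though Rrp9 and Bop1 overlap annotated genes on the other strand. Ncl introns averaged 2401 ± 58.5 at 30 min and 1713 ± 59.7 at 0 min (0.49 ± 0.07, adjusted p = 1.49e-06). Of 30 genes of RNA polymerase I and III, 16 rose and 1 fell (Ttf1) in introns, among them Polr1b, the second largest subunit of polymerase I, at 1675 ± 41.5 and 905.3 ± 60.4.

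In the metabolic lists, beside 15.1% risen and 11.9% fallen over all genes, introns of 12 of 19 polyamine and one-carbon enzymes rose and 1 fell (10 and 2 with sums set equal, 14 and 0 with exon factors), of 24 nucleotide synthesis enzymes 11 rose and 2 fell, and of 16 amino acid transporters 9 rose and 0 fell. Ppat, the first enzyme of purine synthesis, averaged 2271 ± 333 at 30 min and 1017 ± 11.4 at 0 min in introns (1.15 ± 0.08) and 9836 ± 733 and 8970 ± 650 in exons (adjusted p = 0.582). Slc7a5, the large neutral amino acid transporter, had introns at 3179 ± 629 at 30 min and 1313 ± 192 at 0 min, and an exon change of 0.29 ± 0.07 just short of the threshold (adjusted p = 0.0542). Cad introns changed by 0.38 ± 0.08 (adjusted p = 0.00067). Odc1 introns changed by 0.26 ± 0.08 (adjusted p = 0.0214), a call lost with sums set equal, on the 6 libraries alone and without 4 of the 6 single libraries. Of 35 translation factors 15 rose and 3 fell in introns (11 and 5 with sums set equal), and of 21 glycolysis and lactate genes 9 rose and 3 fell, with Hk2, a hexokinase, at 1.38 ± 0.09 in introns and 0.27 ± 0.14 in exons (adjusted p = 0.535). Exon calls numbered 0 in each of these lists, near the 0.366% of all genes, so nothing is read from their absence.

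Mitosis genes fell often in introns. Of 33, 25 fell and 0 rose, beside 11.9% fallen over all genes, with a median of -0.39, and 17 fell in labelled exons, beside 3.61%. In total exons 0 were called, near the 0.0348% of all genes that fell, and the median was -0.052. With the exon factors 17 fell in introns. Introns of Cenpe, a kinetochore motor, averaged 1407 ± 119 at 30 min and 2398 ± 71.8 at 0 min, and those of Top2a, a DNA topoisomerase, 2757 ± 334 and 4466 ± 222. Exons of Top2a averaged 61710 ± 2160 at 30 min and 66490 ± 973 at 0 min (adjusted p = 0.55). Among 30 G1 cyclins and replication genes 6 rose and 8 fell in introns (5 and 11 with sums set equal, 8 and 1 with exon factors), with Ccnd2 introns at 1108 ± 145 at 30 min and 504.4 ± 42.2 at 0 min (1.13 ± 0.10).

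For the remaining lists the intron counts are given beside the 27.1% of all genes called. Of 55 cytosolic ribosomal proteins 10 fell and 0 rose, 18.2% called, a count that ran from 23 falls with sums set equal to 0 with exon factors. Of 21 matrix genes 7 fell and 1 rose, and of 17 heat shock genes 6 fell and 4 rose (3 and 2, and 0 and 6, with exon factors). Of 24 CDK inhibitors and growth arrest genes 5 fell and 3 rose (33.3% called, 4 and 4 with exon factors). Among 22 immediate early factors 5 rose and 1 fell (27.3%, near the share of all genes), and Mafk, a small Maf protein, was the clearest, with introns at 758.7 ± 54.8 and 352.4 ± 27.6 (1.10 ± 0.12) and exons 0.35 ± 0.11 higher (adjusted p = 0.265). Introns of 4 of 9 Myc network genes rose (Max, Mlxip, Mxd4 and Mnt; 44.4%), and 6 of 16 MAPK feedback genes rose while 2 fell (50% called). Of 13 glucocorticoid and cAMP response genes 5 rose and 1 fell (46.2%). Of 24 YAP and TGF-beta targets 6 rose and 4 fell (3 and 5 with sums set equal), and of 18 p53 targets 4 rose and 2 fell (3 and 3 with sums set equal). Of 13 mRNA decay factors 2 rose and 1 fell (1 and 2 with sums set equal), and of 24 SRF and actomyosin targets 2 rose and 1 fell (0 and 2 with sums set equal). Of 13 integrated stress response genes 1 rose and 2 fell (1 and 0 with exon factors), and of 18 sterol synthesis genes 1 rose and 2 fell (2 and 1 with exon factors). No cytokine and NF-kB response gene of 20 was called in exons or introns. Of the markers, introns of Col1a1, Col1a2 and Col3a1 fell (Col1a2 alone with exon factors) and those of Nes and Tubb3 rose (Nes alone without 0 min replicate 2 or 30 min replicate 1).

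**Figure D4:**
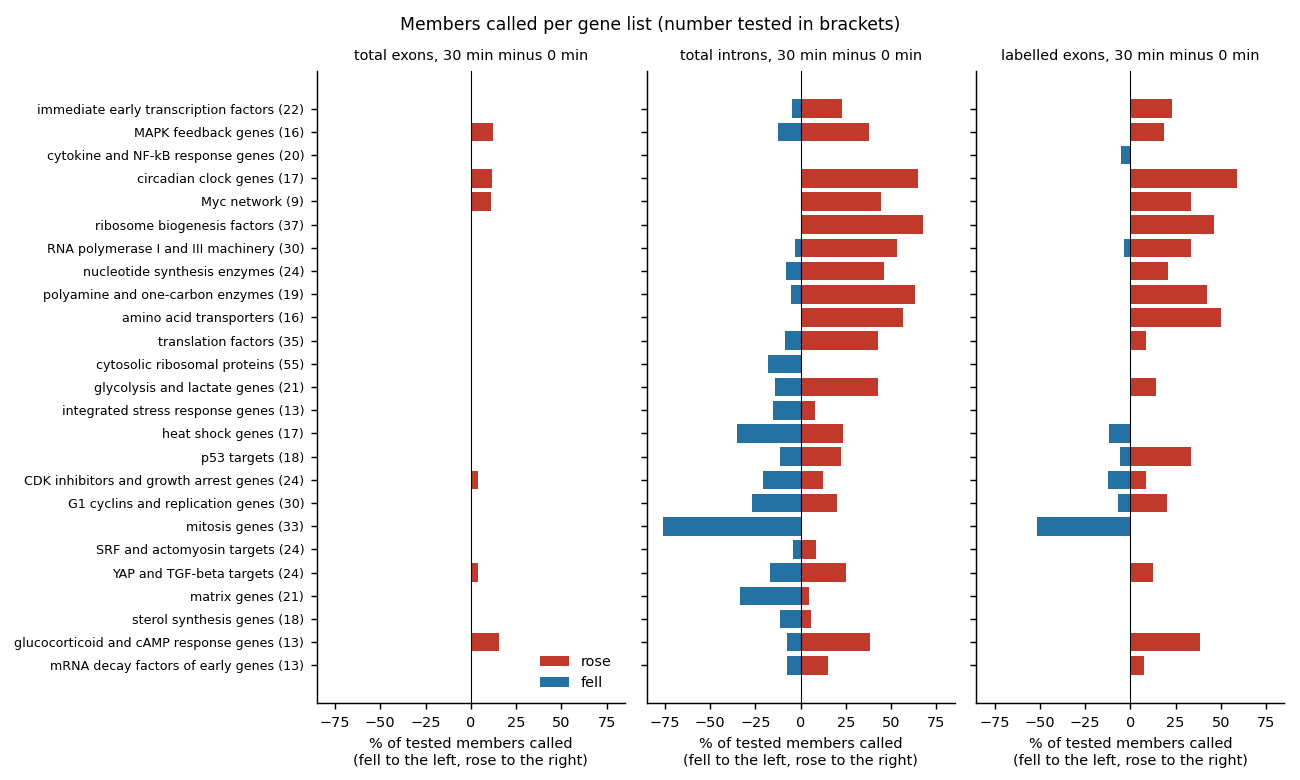
Percent of each list's tested members that rose (red, right) or fell (blue, left) at 30 min against 0 min in total exons, total introns and labelled exons; the number tested in total exons is in brackets. Ribosome biogenesis factors reach 67.6% in introns and 0% in total exons.

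The exon risers had a lower median span and a higher median labelled share than all genes tested. Of the 38 risers, 35 had a single match in the mm9 annotation (GENCODE M1), with a median span of 9.78 kb, and 18 of them (51.4%) were under 10 kb. Genes with an intron rise and no exon call had a median of 32 kb, intron fallers 22.1 kb and all genes tested 25.5 kb, of which 22% were under 10 kb. By quartile of span the number of exon risers was 19, 9, 7 and 0 from the shortest to the longest, while the intron risers numbered 274, 390, 486 and 447. The log2 ratio of labelled to total exon value at 10 min, before any exon call, was centred on the median of all genes. It had a median of 0.66 in the 38 risers, of which 30 lay above the all-gene median, -0.11 in intron risers without an exon call and -0.18 in intron fallers. Among single genes it was 1.28 for Nr1d1, 1.55 for Mnt, 0.66 for Dusp2 and 0.85 for Spry1, but -1.04 for Glul and -0.38 for Rasl11a, so not every riser had a high ratio. The median total exon value at 10 min was 812.6 in the risers and 1551 over all genes, and the part of level in the ratio was not tested. The 10 min libraries lie outside the comparison of 30 min with 0 min, but they had already received OHT. At 10 min the introns of 14 genes were called higher than at 0 min in total RNA. How much of the risers' ratio reflects a rise already begun was not tested. The ratio is given without a test because genes are not replicates.

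**Figure D5:**
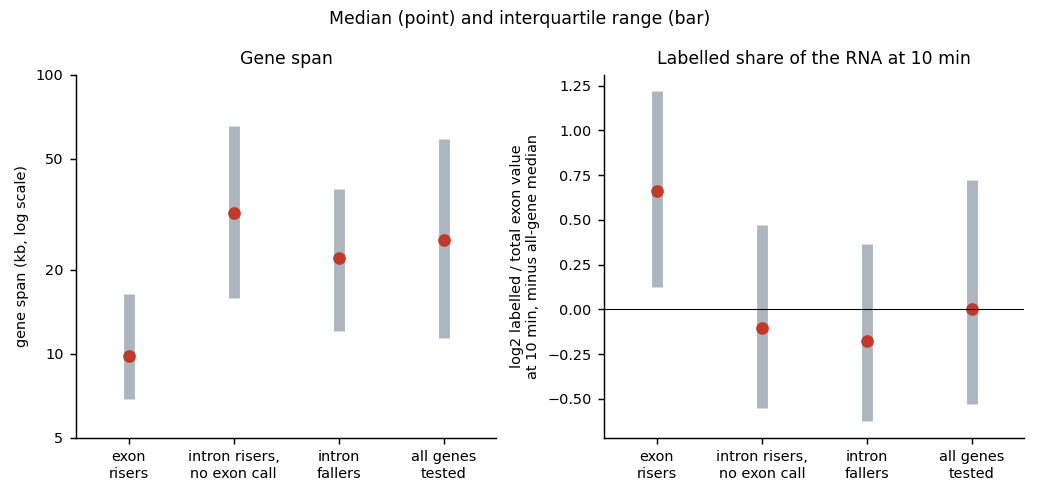
Gene span in kb on a log scale (left) and log2 labelled to total exon ratio at 10 min relative to the all-gene median (right) for exon risers, intron risers without an exon call, intron fallers and all genes tested; points are medians and bars interquartile ranges. Exon risers have the lowest median span (9.78 kb) and the highest median ratio (0.66) of the 4 sets.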

How the data were processed

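Total RNA and 4-thiouridine-labelled RNA of 3T9-MycER fibroblasts had been sequenced at 11 times with 3 replicates each. Reads were aligned with TopHat2 2.0.8 to mm9, per the submitters' processing notes; the counter, with its strand setting and annotation, is not given in the sources used here. Deposited tables hold whole numbers per gene for exons and introns that the authors had already rescaled: low whole numbers are missing in 9 of 33 total RNA libraries of each table, so they were treated as a score and no count model was used. The deposited RPKM values equal these numbers times a constant per gene, to within 0.68%, and served as an alternative. Every library was then brought to a common scale within its table by a trimmed mean (trim of 30% on log ratios and 5% on levels), and genes with at least 10 in 3 libraries were kept. Values were taken as log2(value + 1), which understates changes of low genes, and fitted with limma 3.58.1 (R 4.3.3) to 33 libraries with 11 group means, 22 residual degrees of freedom, a variance trend and Benjamini-Hochberg adjustment at 0.05. The log2 exon to intron ratio used a pseudocount of 2. The test was first run on made-up data with known changes. Genes named were the 14 largest rises and 10 largest falls in exons, 8 and 5 in introns and 5 and 5 in the ratio, with means of at least 50, groups apart and a curated symbol, filled to 5 by p, plus up to 3 called genes per list and 10 fixed genes. Other genes are named to account for all 42 called. The comparison, the 31 lists and the rules were chosen with earlier results of these data known. Positions are from GENCODE M1 (mm9), upstream sequences from RefSeq (GRCm38.p6). Alternatives were other scalings, filters, pseudocounts, RPKM values, a fit on the 2 times alone, a replicate block, no variance trend and leaving out each library.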

Additional observations from a re-analysis of the deposited data

How the results depend on the processing

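The exon count of 42 was 39 to 45 with sums set equal, median-of-ratios scaling, either filter, either pseudocount and no variance trend. It was 97 with no further scaling (25 rises, 72 falls), 163 and 180 on RPKM plus 0.1 and plus 1 (27 and 136, 23 and 157), 3 on the libraries of the 2 times alone, and 19 to 44 leaving out 1 library. The exon comparison of 30 min with 10 min, 62 genes, gave 366 with no further scaling (30 rises, 336 falls). On RPKM plus 0.1 and plus 1 it gave 449 and 467 (29 and 420, 27 and 440). It gave 1 on the 2 times alone, 154 with the replicate block and 18 to 142 leaving out 1 library. The intron count of 3105 stayed between 2246 and 3387 under every alternative, 2246 to 3100 leaving out 1 library; its split is given with the result. The exon to intron count of 1900 was 486 on the 2 times alone and 1302 to 1742 leaving out 1 library. The labelled exon count of 1336 was 739 to 1194 leaving out 1 library, and no further scaling turned its split of 921 and 415 to 491 and 845. The cause of these differences was not tested.

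Whether replicate numbers pair the samples is not settled by these values. Deviations of same-numbered total exon libraries correlated at 0.0782, 0.111 and 0.214, and those of differently numbered ones at -0.249 to 0.12. In total introns the same-numbered values were 0.00792, 0.0589 and 0.139, and in labelled exons 0.0944, 0.0804 and -0.206. Not every library correlated best with its own number. A replicate block gave 57 exon calls (50 and 7, all 42 included), 3387 intron, 2073 ratio and 1493 labelled calls. Of 20 named exon calls, 3 (Nr1d1, Dusp2, Spry1) held under all 18 alternatives; of 99 named intron calls, 79 held under all 19, of which the exon factors for introns, like the comparison of 1 h with 10 min, were added after seeing the data. No named gene changed direction while called. Armc6 passed with sums set equal, no further scaling and RPKM values. Intron falls lost with the exon factors included those of Actb, Col1a1, Col3a1, Nsdhl, Atf4, Rps26, Rps6, Chordc1, Ddit3 and Bgn.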
